A study of Mus musculus with 8 samples.

Results

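The mRNAs of 10 genes of the JAK-STAT pathway were followed in primary murine articular chondrocytes, the cells that make and maintain joint cartilage, after exposure to IL-1β. The genes were chosen by name: the 7 suppressors of cytokine signaling, *Socs1* to *Socs7*, the related *Cish*, the kinase *Jak2* and the transcription factor *Stat3*. All 10 were found among the 54658 gene symbols of the deposited table, and all 10 passed the filter on low counts. Treated samples and controls numbered 4 each. The cells had been released with collagenase from femoral head cartilage of wild-type mice aged 3 weeks and were kept in medium with serum. The IL-1β samples received IL-1β at 1 ng/mL for 24 h, and the vehicle samples received vehicle for the same 24 h. No allele or other agent separated the groups. Neither the labels nor the methods say whether the 4 samples of a group came from separate animals or cultures, so that p-values measure the spread between these samples only, which may be technical.

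Cytokines of the IL-6 family bind receptors that contain gp130, and the JAK kinases bound to those receptors then phosphorylate STAT3, which enters the nucleus and switches on genes. *Socs3* and *Cish* are classic targets of STAT factors, and their proteins turn off the receptor or kinase that induced them, which closes a negative feedback loop. SOCS proteins carry an SH2 domain, which binds phosphotyrosine, and a SOCS box, which recruits a ubiquitin ligase. IL-1β itself signals through NF-κB and MAP kinases rather than through JAKs, and in chondrocytes it is known for inducing IL-6 family cytokines and matrix-degrading enzymes.

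STAT dimers recognize the palindrome TTCNNNGAA, where N is any base. Its fixed letters, TTC and GAA, read the same on both strands, while the bases at N need not. RefSeq promoter windows of GRCm38.p6, from 250 bases before to 50 bases after the start site, were given for 6 of the 10 genes, *Socs1*, *Socs3*, *Socs4*, *Cish*, *Stat3* and *Jak2*. The motif was found in 2 of these 6 windows and in 8.30% of all 32851 windows of the same length. Both stretches are shown with the motif in capitals. Whether STAT factors act through these letters was not tested.
*Socs3*, chr11:117969501-117969530, minus strand: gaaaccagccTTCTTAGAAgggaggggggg
*Cish*, chr9:107296649-107296678, plus strand: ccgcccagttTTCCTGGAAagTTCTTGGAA
The RefSeq starts used here lie inside the GENCODE gene bounds given further on, with windows at chr11:117969317-117969616 for *Socs3* and chr9:107296409-107296708 for *Cish*. In *Socs3* the motif began 154 bases before the RefSeq start site. *Cish* had 2 copies, the first of them at the RefSeq start site, and that copy also fit the stricter TTCCNGGAA, which 1.15% of all windows contained. A match to the κB consensus, the motif of NF-κB, was found in 0 of the 6 windows and in 8.46% of all windows. Such matches describe letters only and are no evidence of binding.

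The 8 samples held 10992355 to 17456063 counts each, and a single noncoding gene, *Gm26917*, took 13.2 to 14.6% of the counts of a sample. Of the 14404 genes tested, 5796 had an adjusted p-value under 0.05, in either direction. The chondrocyte label was checked against 10 cartilage genes, chosen with earlier results of these data known, all of which passed the filter. Their summed level was 16155 to 16776 CPM (counts scaled to library size, TMM) with vehicle and 4194 to 4606 CPM after IL-1β. All 10 fell by more than 2-fold, as 2.35% of all genes did. In bulk RNA, fewer cells of a type and less RNA per cell cannot be told apart. Blood cells express several SOCS genes, so that 10 of their markers were summed as well, which gave 15.1 to 16.8 CPM in controls, against 30.3 to 33.8 CPM after IL-1β. Of the 10 markers, 3 were tested, with *Cd14* and *Cd68* higher and *Lyz2* lower. *Lyz2* was not called with DESeq2 (adjusted p = 0.108), nor in edgeR without a filter on low counts (adjusted p = 0.075) or with the replicate number as a block (adjusted p = 0.055). Its call was also lost without IL-1β replicate 3, IL-1β replicate 4, vehicle replicate 1 or vehicle replicate 3 (adjusted p from 0.0685 to 0.126). *Ptprc* held 0 to 6 counts in any sample and *Cd3e* held 0 counts in all 8, which allows up to 0.172 to 0.273 CPM (3 counts of a total, for counting error only). Of 6 endothelial markers, 0 passed the filter. Of 6 fibroblast and synovial lining markers, 3 passed the filter and rose (*Prg4*, *Pdgfra* and *Pdpn*), while *Thy1*, *Dpt* and *Pi16* were below it. Their summed level, nearly all from *Prg4*, which articular cartilage also makes, was 863 to 913 CPM in controls, against 2024 to 2140 CPM after IL-1β, and that of 5 osteoblast markers was 84.9 to 96.1 CPM and 26.1 to 31.7 CPM. The part of these shifts in the changes below was not tested.

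The SOCS genes, *Jak2* and *Stat3* changed little after 24 h of IL-1β. Of the 10 genes, 6 passed an adjusted p-value of 0.05 (edgeR's quasi-likelihood test, adjusted over all genes tested), against 40.2% of all genes. *Socs5*, *Socs6* and *Jak2* rose, and *Socs3*, *Socs4* and *Socs7* fell. Higher calls made up 20.4% and lower calls 19.8% of all genes. None of the 10 changed by more than 2-fold, as 5.21% of all genes did (2.86% higher and 2.35% lower). Their log2 fold changes lay between -0.20 and 0.33, and the median of their absolute values was 0.158, against 0.157 for all genes tested. In 5 of the 10 genes the IL-1β and vehicle samples did not overlap, against 36.8% of all genes. The typical size of a change was thus that of the whole table. The 10 genes were chosen by name with earlier results of these data known, so that the 6 calls among them are a count with no test.

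**Figure D1:**
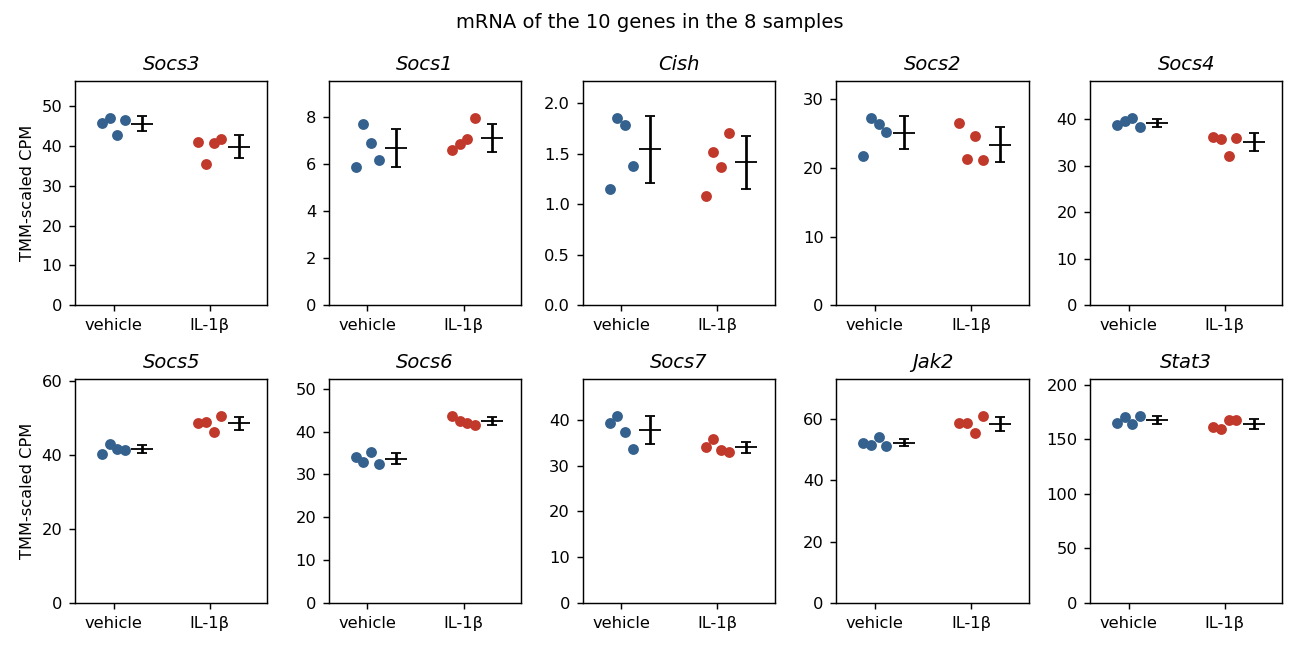
Levels of the 10 genes in TMM-scaled CPM, with an axis of its own that starts at 0 for each gene. Points are the 4 vehicle (blue) and 4 IL-1β samples (red), and bars are the mean ± SD (n = 4). The groups are apart in *Socs3*, *Socs4*, *Socs5*, *Socs6* and *Jak2*, and in *Stat3* all samples lie between 159 and 171 CPM.

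*Socs3* encodes the inhibitor that binds gp130 and JAK and ends signaling by IL-6. The gene lies on chromosome 11 from 117966079 to 117970047 (GRCm38, minus strand, ENSMUSG00000053113.3). Its level was 45.9, 47.0, 42.9 and 46.6 CPM in the 4 vehicle samples and 41.1, 35.6, 40.8 and 41.8 CPM in the 4 IL-1β samples. Every IL-1β sample was below every vehicle sample, although the highest IL-1β sample and the lowest vehicle sample differed by little. The mean fell from 45.6 ± 1.87 to 39.8 ± 2.84 CPM (SD, n = 4 in each group), a log2 fold change of -0.20 with a standard error of 0.0502 (adjusted p = 0.0022). This is a change of -12.7%, with a 95% interval from -18.8% to -6.28%, so that a rise of *Socs3* at this time point lay outside the interval. With IL-1β replicate 2, the lowest sample, left out, the log2 fold change was -0.14.

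*Socs1*, on chromosome 16 from 10782240 to 10785536, encodes the inhibitor that blocks JAK kinases directly and is best known for restraining interferon signals. It had 5.88, 7.68, 6.92 and 6.18 CPM in controls, against 6.58, 6.85, 7.07 and 7.94 CPM after IL-1β, and the groups overlapped. These values rest on 73 to 133 counts per sample. The log2 fold change of 0.10 (standard error 0.115) did not pass the test (adjusted p = 0.555). Its 95% interval ran from -9.21% to 25.9%, which leaves room for a change in either direction but for none as large as 2-fold.

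*Cish* and *Socs2* belong to the arm of the family that answers growth hormone and other signals through STAT5. *Cish*, on chromosome 9 from 107296026 to 107302784, was the least abundant of the 10 genes, with 12 to 24 counts in the IL-1β samples and 20 to 32 counts in the vehicle samples. Its level was 1.42 ± 0.262 CPM (SD, n = 4) after IL-1β, against 1.54 ± 0.331 CPM (SD, n = 4) in controls, and the groups overlapped. At this depth the 95% interval was wide, from -33.2% to 29.7% (adjusted p = 0.773). An antisense gene and a pseudogene on the other strand cover 11.5% of the *Cish* exons, and since it is not stated whether counting used the strand, reads of both strands cannot be told apart.

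*Socs2*, on chromosome 10 from 95385362 to 95417180, encodes the main brake on the growth hormone receptor, and mice that lack it grow large. It had 21.7, 27.2, 26.4 and 25.2 CPM in controls, against 26.5, 21.3, 24.6 and 21.1 CPM after IL-1β. The groups overlapped, since vehicle replicate 1 was as low as the lower IL-1β samples and IL-1β replicate 1 was as high as the vehicle samples. Its log2 fold change of -0.11 (standard error 0.0742) did not pass the test (adjusted p = 0.28), and the 95% interval ran from -16.4% to 3.28%.

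*Socs4* to *Socs7* form the less studied branch of the family, with long N-terminal regions. *Socs4* and *Socs5* are known for acting on the EGF receptor, and *Socs6* and *Socs7* for acting on insulin and other receptor tyrosine kinases. Here *Socs5* and *Socs6* rose while *Socs4* and *Socs7* fell. *Socs6*, on chromosome 18 from 88665224 to 88927481, had the largest change of the 10 genes. It had 34.0, 33.0, 35.3 and 32.4 CPM in controls, against 43.6, 42.5, 42.1 and 41.6 CPM after IL-1β. The groups were far apart for their spread. The log2 fold change was 0.33 with a standard error of 0.0463 (adjusted p = 8.28e-07), a rise of 26.1% with a 95% interval from 18.0% to 34.6%. Its absolute change exceeded that of 75.7% of the genes tested.

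*Socs5*, on chromosome 17 from 87107679 to 87137839, had 40.2, 42.8, 41.5 and 41.3 CPM in controls, against 48.7, 48.8, 46.2 and 50.4 CPM after IL-1β. All 4 IL-1β samples were above all 4 vehicle samples. It rose by 16.95% (log2 fold change 0.23, standard error 0.0438, adjusted p = 0.000113).

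*Socs4*, on chromosome 14 from 47276931 to 47296102, moved the other way, from 38.7, 39.6, 40.1 and 38.2 CPM with vehicle to 36.2, 35.7, 32.1 and 36.0 CPM after IL-1β. The groups did not overlap, and IL-1β replicate 3 was lower than the other IL-1β samples. The log2 fold change was -0.17 with a standard error of 0.0491 (adjusted p = 0.0068). Without IL-1β replicate 3 it was -0.12, and the call was lost (adjusted p = 0.0574 from edgeR).

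*Socs7*, on chromosome 11 from 97362551 to 97398542, had 39.4, 40.8, 37.4 and 33.7 CPM in controls, against 34.1, 35.8, 33.4 and 32.9 CPM after IL-1β. The groups overlapped, since vehicle replicate 4 was as low as the IL-1β samples. The log2 fold change of -0.16 (standard error 0.0552) passed the test with an adjusted p of 0.0233. The call did not hold with DESeq2 (adjusted p = 0.0636), nor when IL-1β replicate 3, IL-1β replicate 4, vehicle replicate 1 or vehicle replicate 2 was left out (adjusted p from 0.0656 to 0.121).

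**Figure D2:**
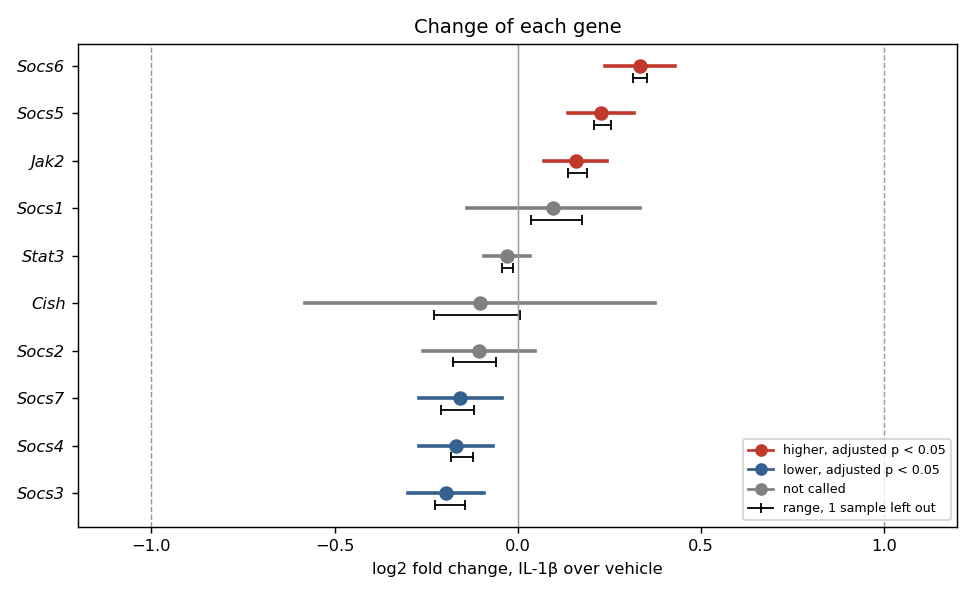
Log2 fold change of each gene, IL-1β over vehicle. Points and colored lines are the estimate and its 95% interval from 4 against 4 samples, the thin black lines give the range when each of the 8 samples is left out in turn, and dashed lines mark a 2-fold change. All 10 genes lie within these lines, between -0.20 and 0.33, and the interval of *Cish* is the widest.

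*Stat3* encodes the transcription factor on which gp130 signals converge. The gene lies on chromosome 11 from 100885098 to 100939540. It had 165, 170, 164 and 171 CPM in controls, against 161, 159, 168 and 168 CPM after IL-1β. The samples of both groups were interleaved, and the group means, 167.6 ± 3.66 and 164.0 ± 4.5 CPM (SD, n = 4), were not told apart by the test (log2 fold change -0.03, standard error 0.0304, adjusted p = 0.474). With 1791 to 2948 counts per sample this was also the most precise of the 10 estimates, with a 95% interval from -6.22% to 2.25%. Less than 1% of the *Stat3* exons, 0.756%, is shared with *Stat5a* on the other strand.

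*Jak2*, on chromosome 19 from 29251828 to 29313080, encodes a kinase bound to gp130 and to the growth hormone receptor. It had 52.2, 51.6, 54.0 and 51.2 CPM in controls, against 58.8, 58.5, 55.2 and 60.8 CPM after IL-1β. The groups did not overlap, and the mean rose by 11.6% (log2 fold change 0.16, standard error 0.0416, adjusted p = 0.0029).

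The other JAK kinases and STAT factors also changed by less than 2-fold. Of the 11 genes of this list, *Jak2* and *Stat3* included, 10 were tested. Of those, 5 rose and 3 fell, against 20.4% and 19.8% of all genes. *Jak1*, the kinase that gp130 depends on most, rose from 117.5 ± 0.604 to 147.1 ± 3.56 CPM (SD, n = 4; log2 fold change 0.32, adjusted p = 5.72e-10). *Jak3*, whose kinase is best known from lymphocytes, fell from 14.96 ± 1.13 to 10.7 ± 1.12 CPM (log2 fold change -0.48, adjusted p = 7.21e-05). *Stat6*, the factor of IL-4 signaling, rose by 0.33 on the log2 scale (adjusted p = 1.28e-08), and *Stat2*, a factor of interferon signaling, by 0.40 on the log2 scale (adjusted p = 0.0032). *Tyk2* passed the test as higher (log2 fold change 0.17, adjusted p = 0.0435), and *Stat5a* and *Stat5b* as lower (log2 fold changes -0.13 and -0.12, adjusted p = 0.0359 and 0.0406), all by small margins. *Stat4* held 1 count in all 8 samples together. The count of 8 calls dropped to 5 with DESeq2 and when IL-1β replicate 2, vehicle replicate 2 or vehicle replicate 4 was left out, in each case through the loss of *Tyk2*, *Stat5a* and *Stat5b*.

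Levels of different genes were compared as CPM per kilobase of the listed gene length. In vehicle, *Stat3* was highest with 17.6 ± 0.384 CPM per kilobase (SD, n = 4), followed by *Socs3* with 15.8 ± 0.646 and *Jak2* with 10.4 ± 0.245. *Socs5* (6.46), *Socs4* (5.70), *Socs7* (5.21) and *Socs6* (4.09 CPM per kilobase) formed the middle of the order. *Socs2* (2.64), *Socs1* (2.29) and *Cish* (0.240 CPM per kilobase) were lowest. The sample ranges of *Socs4* and *Socs7* overlapped, as did those of *Socs2* and *Socs1*, and the other neighbors were apart. With IL-1β the order was the same but for *Socs6*, which moved from place 7 to place 5. There it had 5.16 ± 0.106 CPM per kilobase and overlapped with *Socs4*, which in turn overlapped with *Socs7*. The listed length of *Socs6*, 8225 bases, differed from the 11349 exon bases of GENCODE vM21, so that its place in the order depends on the gene model. For the other 9 genes the lengths were identical.

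**Figure D3:**
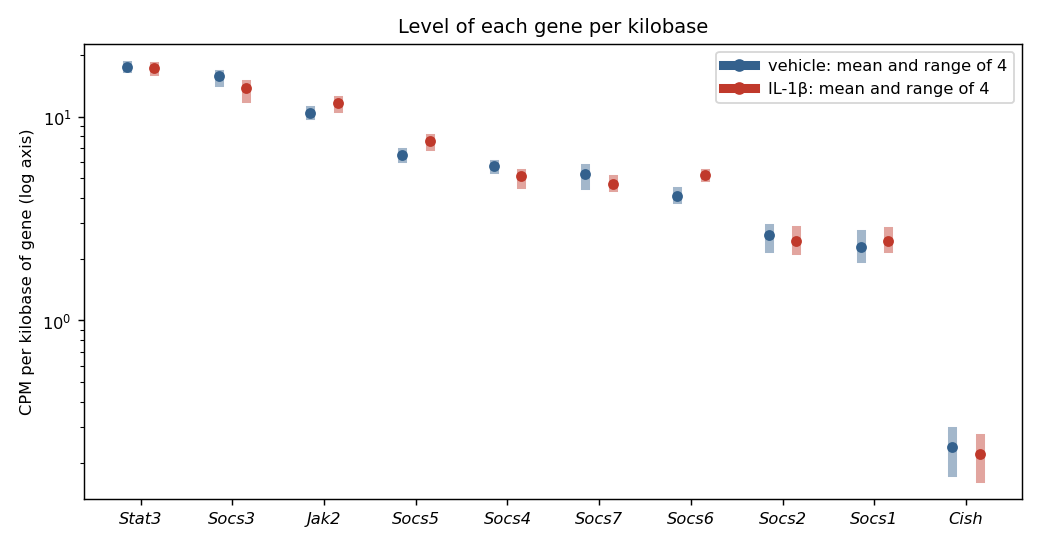
Level of each gene in CPM per kilobase on a log axis, in the order of the vehicle means. Points are means and bars are the range of the 4 samples, for vehicle (blue) and IL-1β (red). *Stat3* and *Socs3* are at the top and *Cish* is far below the rest, and *Socs6* with IL-1β reaches the level of *Socs4*.

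The 7 SOCS genes and *Cish* together had 41.7 to 44.1 CPM per kilobase in the vehicle samples and 40.1 to 42.4 in the IL-1β samples, so that the total overlapped between the groups. What shifted was the composition. *Socs3* made up 37.2 ± 1.47% of this total with vehicle and 33.3 ± 1.7% with IL-1β (SD, n = 4). *Socs5* went from 15.2 ± 0.223% to 18.3 ± 0.625%, and *Socs6* from 9.66 ± 0.492% to 12.5 ± 0.408%. *Socs4* went from 13.4 ± 0.348% to 12.3 ± 0.644%. In these 4 genes the shares of the IL-1β samples were apart from those of the vehicle samples. Their levels were apart as well, as were those of 36.8% of all genes, so that the shares restate the changes of level given above. The total and all shares depend on the listed length of *Socs6*, 8225 bases, against 11349 exon bases in GENCODE vM21. The share of *Socs1* was 5.398 ± 0.524% with vehicle and 5.91 ± 0.448% with IL-1β, with overlapping samples.

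**Figure D4:**
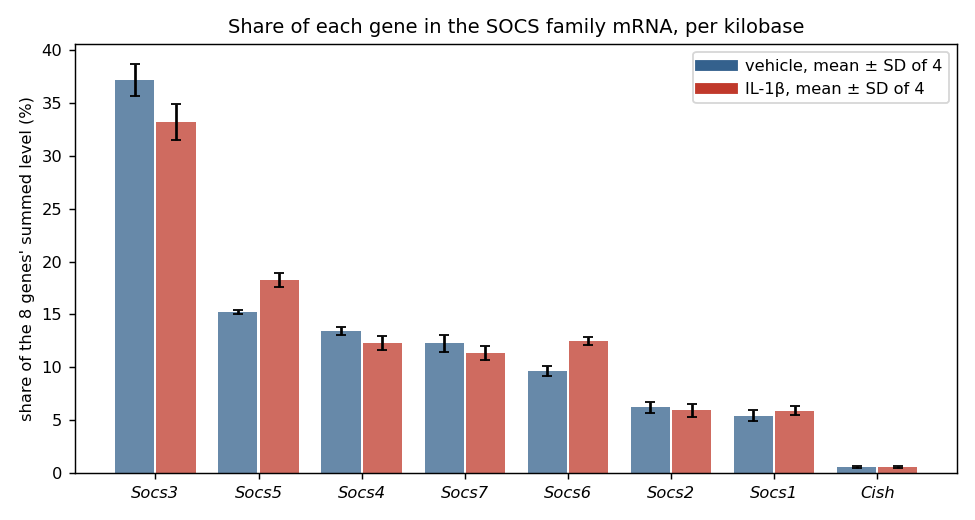
Share of each gene in the summed level of the 7 SOCS genes and *Cish* (CPM per kilobase), in percent. Bars are means ± SD of 4 vehicle (blue) and 4 IL-1β samples (red). *Socs3* makes up 37.2% with vehicle and 33.3% with IL-1β, and *Socs5* and *Socs6* take larger shares with IL-1β.

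A ratio of 2 genes within a sample does not depend on how the libraries are scaled. The log2 ratio of *Socs3* to *Stat3*, per kilobase, was -0.12, -0.14, -0.22 and -0.16 in the vehicle samples and -0.25, -0.44, -0.32 and -0.28 in the IL-1β samples, so that *Socs3* was lower against *Stat3* in every IL-1β sample than in any vehicle sample. The ratio of *Socs2* to *Jak2* had a mean of -1.98 ± 0.145 with vehicle and -2.25 ± 0.194 with IL-1β (SD, n = 4), and that of *Cish* to *Jak2* one of -5.46 ± 0.312 and -5.73 ± 0.264. In both of these ratios the groups overlapped.

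Some genes that act upstream of the SOCS genes changed by more than 2-fold. Of 12 ligands of the gp130 family, 4 passed the filter. *Lif*, which signals through gp130 and its own receptor chain, rose from 8.33 ± 0.476 to 18.2 ± 1.66 CPM (SD, n = 4; log2 fold change 1.12). *Il6*, the best known inducer of *Socs3*, held 17, 14, 17 and 26 counts in the IL-1β samples and 0 in each vehicle sample. It was not tested, since the filter used CPM before TMM scaling, which in IL-1β replicate 3 was just under 1, although the TMM-scaled values of the 4 IL-1β samples were 1.01 to 1.84 CPM. Against a floor of 3 counts over the 4 vehicle samples together, its level was 28.2-fold higher with IL-1β. The floor covers counting error in the vehicle samples only, and that of the 74 IL-1β counts is not in this ratio.

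Of 13 receptor chains that signal through STAT3, 7 were tested, with 3 higher, 2 lower and 2 not called. Across all genes, 20.4% were called higher and 19.8% lower. *Il6st*, which encodes gp130, had 543, 562, 559 and 557 CPM in controls, against 1388, 1354, 1364 and 1345 CPM after IL-1β. The groups were far apart (log2 fold change 1.29, standard error 0.0281, adjusted p = 1.01e-24). *Il6ra*, the IL-6 binding chain, rose from 7.21 ± 0.793 to 15.2 ± 0.893 CPM (log2 fold change 1.07, adjusted p = 1.99e-10), and *Il10rb*, a chain shared by IL-10 family receptors, rose with a log2 fold change of 1.32. *Lifr* and *Lepr*, the receptors of LIF and leptin, fell, with log2 fold changes of -0.49 and -0.90. *Osmr*, the oncostatin M receptor, had 312 ± 15.1 CPM in controls, against 318 ± 7.28 CPM after IL-1β (adjusted p = 0.624). The gp130 chain and *Lif* thus passed a 2-fold change while *Socs3* and *Stat3* did not.

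Among brakes outside the SOCS family, no gene tested changed by more than 2-fold. Of 14 such genes, phosphatases, PIAS proteins and adaptors among them, 10 were tested, and 7 rose and 1 fell, against 20.4% and 19.8% of all genes. The 8 calls numbered 6 to 8 with single samples left out. That of *Pias4* was lost with DESeq2 (adjusted p = 0.117) and in 6 of the 8 fits without 1 sample. In edgeR it was also lost with total library size, the replicate block or no filter on low counts (adjusted p from 0.0508 to 0.126). *Dusp3*, a phosphatase that can act on STATs, had the largest change, with 16.8 ± 0.605 CPM in controls, against 31.3 ± 0.943 CPM after IL-1β (SD, n = 4; log2 fold change 0.90). *Ptpn2*, which removes phosphate from JAKs and STATs, rose by 0.25 on the log2 scale (adjusted p = 0.000194), and *Pias1*, an inhibitor of STAT factors, fell by 0.21 on the log2 scale (adjusted p = 0.0013). The median log2 fold change was 0.12 over the 10 genes, against -0.0012 over all genes tested.

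SOCS proteins work through a ubiquitin ligase built on cullin 5 and the elongins. All 9 genes of this list were tested, of which 1 rose, 2 fell and 6 were not called. Calls made up 40.2% of all genes, so that these counts do not set the list apart. *Cul5*, the cullin that SOCS boxes recruit, fell by 0.19 on the log2 scale (adjusted p = 0.0027), and *Cul2*, a related cullin, fell by 0.21 on the log2 scale (adjusted p = 0.000159). *Arih2*, a ligase that works with cullin 5, rose by 0.21 on the log2 scale (adjusted p = 7.87e-05).

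Among 10 genes of the growth hormone axis, on which *Socs2* and *Cish* act, 5 were tested. Of those, 2 were higher and 2 lower, against 20.4% and 19.8% of all genes. *Irs1*, an adaptor of the insulin receptors, fell from 124.4 ± 2.58 to 91.1 ± 2.57 CPM (SD, n = 4; log2 fold change -0.45). *Ghr*, the growth hormone receptor, fell by 0.26 on the log2 scale (adjusted p = 0.000996). *Sh2b1*, an adaptor that enhances JAK2, rose by 0.29 on the log2 scale (adjusted p = 5.92e-06), and *Irs2* by 0.14 on the log2 scale (adjusted p = 0.0093).

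Several genes known as targets of STAT3 rose by more than 2-fold, unlike the factor itself and its inhibitors. *Socs3*, itself a STAT target, was counted among the 10 genes and not in this list, and it fell (log2 fold change -0.20). Of the 20 genes listed, 19 were tested, and 13 rose and 5 fell, against 20.4% and 19.8% of all genes. By more than 2-fold, 9 were higher and 1 was lower, against 2.86% and 2.35% of all genes. The median log2 fold change was 0.63, against -0.0012 over all genes tested. The largest rises were those of the acute phase genes *Saa3* (0.915 to 721 CPM), *Hp* (1.71 to 238 CPM), *Lcn2* (285 to 8081 CPM) and *Lbp* (6.22 to 152 CPM), with log2 fold changes of 9.57, 7.09, 4.83 and 4.61. The list was drawn up with earlier results of these samples known, and NF-κB and C/EBP factors also act on many of its genes, so that its direction is no independent evidence on STAT3.

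**Figure D5:**
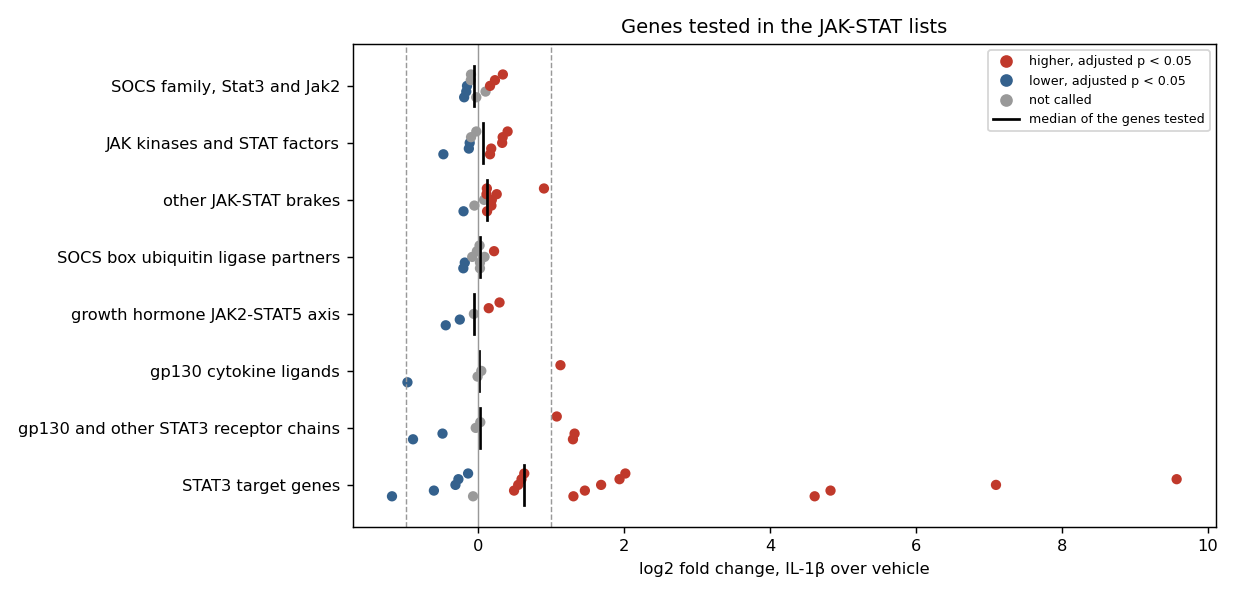
Log2 fold change, IL-1β over vehicle, of the genes tested in each JAK-STAT list. Each point is 1 gene, red where higher and blue where lower with an adjusted p under 0.05 and grey where not called, black bars are the list medians, and dashed lines mark a 2-fold change. The SOCS family, *Stat3* and *Jak2* stay between -0.20 and 0.33, while the STAT3 target genes reach 9.57. *Jak2* and *Stat3* appear in the first and the second list.

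The genes most like *Socs3* across the 8 samples were *Atp5e*, *Psmg3* and *Rrp12*, with a Pearson's r of log2(CPM + 1) of 0.985, 0.969 and 0.965. Those most like *Stat3* were *Smarca1*, *Hgsnat* and *Kalrn*, with an r of 0.977, 0.977 and 0.963. These 6 genes were picked as the best matches among 14404, and all genes of a sample share its library and depth, so that the values are descriptions only.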

How the data were processed

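RNA-Seq covered 4 IL-1β and 4 vehicle samples of murine articular chondrocytes, grouped by their labels. Per the methods, reads were trimmed with cutadapt and aligned by STAR to mm10 under GENCODE vM20, and featureCounts then counted them. The deposited values are whole-number counts for each gene symbol. Whether these precede the batch correction with RUVseq named in the methods is not stated, the strand setting is not given in the sources used here, and the labels name no batch. The deposited gene lengths, in bases (unit: other), served for levels per kilobase only.

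The test covered genes that exceeded a CPM of 1, before TMM scaling, in 4 or more samples. It was run with edgeR 4.0.16 (limma 3.58.1, R 4.3.3), using TMM factors, the quasi-likelihood test with treatment as the only term, and Benjamini-Hochberg adjustment over all 14404 genes tested. A gene was called at an adjusted p under 0.05, and past 2-fold at a log2 fold change beyond 1. Levels are TMM-scaled CPM, given as mean ± SD. At 10992355 to 17456063 counts per sample, a floor of 3 counts stands for a count of 0 and covers counting error only. The code was tested on simulated data. Positions and exons come from GENCODE vM21 (GRCm38), promoters from RefSeq (GRCm38.p6), read with Python 3.11.15, and figures were drawn with matplotlib 3.10.9.

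The 10 genes and the JAK-STAT and marker lists were chosen with earlier results of these data known. Named besides the 10 genes are the JAK and STAT genes, up to 4 genes past 2-fold in each other list by size of change, or up to 3 called genes where none was, and the 3 genes most correlated with *Socs3* and with *Stat3*. *Il6*, *Pias4*, *Lifr*, *Lepr*, *Osmr*, *Irs2*, *Gm26917*, the marker genes and the STAT3 target genes of the closing section were named after their values were seen. Some genes of the lists are not reported here. Alternatives were DESeq2 1.42.0, DESeq2's size factors, total library size, other filters, the replicate number as a block, 1 factor of unwanted variation (RUVs, written out in R), and each sample left out in turn.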

Additional observations from a re-analysis of the deposited data

Results flagged for a closer look

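For each of the 10 genes and each of the treatments, the extreme value among the 4 samples was set against Dixon's ratio at its 95% critical value. This was exceeded in 2 of 20 groups of values, where chance gives about 1 in 20. *Socs3* measured 35.6 CPM in IL-1β replicate 2, while the remaining IL-1β samples lay at 40.8 to 41.8 CPM. *Socs4* measured 32.1 CPM in IL-1β replicate 3, and 35.7 to 36.2 CPM in the rest. Both extremes lie on the side of the fall, and the cause was not tested.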

How the results depend on the processing

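Of 355 values recomputed under the alternatives, 339 kept their direction and their side of the threshold, or stayed within 1.5 times the count. The calls of *Socs3*, *Socs5*, *Socs6* and *Jak2* held under all 15 alternatives to the fit. With DESeq2, *Socs7* had a log2 fold change of -0.16 and was not called, and 5 JAK and STAT genes were called in place of 8. Without a filter on low counts, 635 genes were higher and 571 lower by more than 2-fold, in place of 412 and 339, and with a CPM above 1 in all 8 samples 266 were higher, since fewer or more genes were tested. Leaving out single samples, the log2 fold change of *Socs4* lay between -0.18 and -0.12, that of *Socs7* between -0.21 and -0.12, and that of *Cish* between -0.23 and 0.0064, where it changed sign without vehicle replicate 2. Among the genes not called, *Socs1* ranged from 0.04 to 0.18, *Socs2* from -0.18 to -0.06 (adjusted p down to 0.0579 without vehicle replicate 1) and *Stat3* from -0.04 to -0.01, with none called. The genes called lower among the 10 numbered 1 to 3 (1 without IL-1β replicate 3), and the JAK and STAT genes called numbered 5 to 8. The order of levels with IL-1β had 6 to 10 genes at the same place, with 6 when IL-1β replicate 3 was left out. The replicate numbers did not mark pairs in the data, since deviations from the group means had a correlation of -0.0699 to 0.0416 over genes between samples that shared a number. With the replicate block, 5643 genes were called, 5586 of them shared with the 5796, and no call among the 10 genes changed. No scaling moved the median of all genes further from 0 than -0.00605 (log2). Depth limits *Cish*, with at most 32 counts in a sample.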

Other observations

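The gp130 chain and *Socs3* moved apart. The log2 ratio of *Socs3* to *Il6st*, per kilobase, was -1.67 ± 0.0658 with vehicle and -3.16 ± 0.104 with IL-1β (SD, n = 4), and the groups did not overlap. This ratio was chosen after its values were seen and is given as a description.

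The 5 genes of the STAT3 target list that fell were *Fos*, *Ccnd1*, *Pim3*, *Bcl2l1* and *Myc*, with log2 fold changes of -1.19, -0.61, -0.32, -0.28 and -0.14. *Fos* is an immediate early gene, *Ccnd1* encodes cyclin D1, *Pim3* a survival kinase, *Bcl2l1* an inhibitor of apoptosis and *Myc* a growth factor-induced transcription factor. *Bcl3*, *Cebpd*, *Il4ra*, *Icam1* and *Cebpb*, transcriptional regulators and cell surface receptors on the same list, rose by more than 2-fold, with log2 fold changes of 1.93, 2.01, 1.68, 1.46 and 1.30. These genes were named after their values were seen.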
